A study of Homo sapiens with 8 samples.

Results

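Intermediate neurogenic progenitors are the cells through which radial glia, the stem cells of the embryonic cortex, commonly produce excitatory neurons. They are described here in 2D and 3D neural cultures grown from H1 (NIH 0043), an established human embryonic stem cell line. A cell was counted as one when its deposited value was 1 or more for at least 2 of 6 marker genes (EOMES, NEUROG1, NEUROG2, NHLH1, PPP1R17 and NEUROD4) and 0 for COL3A1, TTR and SLC17A7, which mark mesenchyme, choroid plexus and more mature cortical excitatory neurons. The rule found 1376 of 43693 cells. Cycling cells were kept. Since the cells were chosen by these measured values, differences from other cells in any gene are given below as a description, without a test.

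All cells were pooled, barcoded by a split-pool method and sequenced as 8 sublibraries, each a portion of the same pool. The start of each cell name is a tag, and there were 46 tags in 9 arrangements: 2DMono (6 tags), 2DCocu (12), 2DProto2Fjo (2), 2DProto3Wu (2), 2DProto4Nic (2), 3DMono (6), 3DFusi (10), 3DProto1For (3) and 3DProto2Xia (3). Tags of 2DMono and 3DMono also carried Vehic, AcMor or AcDop, and those of 2DCocu and 3DFusi Vehic, AcCoc or AcMor, followed by a number. The labels list dopamine, cocaine, morphine and untreated cultures but do not define these codes, nor say which differentiation protocol, age in culture, dose or exposure time a tag had, so the codes are kept as names. The tag is the replicate throughout. The labels do not say that numbered tags were separate cultures, so every p-value measures only the spread between tags, which may be technical.

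In the developing cortex, radial glia that leave the stem cell state switch on the proneural factors NEUROG1 and NEUROG2, and then EOMES (also called TBR2) and a cascade of further basic helix-loop-helix factors that includes NEUROD4 and NHLH1. The resulting progenitors usually divide a limited number of times, present Delta ligands that keep neighbouring radial glia undifferentiated through Notch receptors, and hand over to neurons that carry NEUROD6, TBR1 and later SLC17A7. Proneural factors bind DNA at E-boxes, short words of the form CANNTG.

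The windows below are shown because they belong to genes on which the results turn: NHLH1 and NEUROD4, which are 2 of the marker genes, and SRRM4, FOS and EGR1, which were lower or higher in progenitors of 3D arrangements. Each is the 250 bases before the gene's start, 5′ to 3′ on the gene's own strand, from RefSeq (GRCh38.p14); all 6 markers had such a window. In NHLH1 (chr1:160366821-160367070, + strand), NEUROD4 (chr12:55019724-55019973, + strand) and SRRM4 (chr12:118981291-118981540, + strand) capitals mark every CANNTG, a word that reads the same form on both strands. In FOS (chr14:75278578-75278827, + strand) and EGR1 (chr5:138465229-138465478, + strand) capitals mark TATAAA and the CArG box of serum response factor, searched on both strands together with the cyclic AMP response element TGACGTCA. None of the marked words overlap.
NHLH1: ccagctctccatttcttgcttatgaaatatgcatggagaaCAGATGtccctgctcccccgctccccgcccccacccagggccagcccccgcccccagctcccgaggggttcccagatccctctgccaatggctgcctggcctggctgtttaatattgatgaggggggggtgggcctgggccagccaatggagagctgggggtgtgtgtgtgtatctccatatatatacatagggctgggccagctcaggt
NEUROD4: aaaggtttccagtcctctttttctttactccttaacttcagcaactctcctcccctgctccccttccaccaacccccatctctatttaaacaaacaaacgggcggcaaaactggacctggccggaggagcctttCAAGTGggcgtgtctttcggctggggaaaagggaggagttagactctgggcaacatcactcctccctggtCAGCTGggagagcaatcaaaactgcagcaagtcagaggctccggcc
SRRM4: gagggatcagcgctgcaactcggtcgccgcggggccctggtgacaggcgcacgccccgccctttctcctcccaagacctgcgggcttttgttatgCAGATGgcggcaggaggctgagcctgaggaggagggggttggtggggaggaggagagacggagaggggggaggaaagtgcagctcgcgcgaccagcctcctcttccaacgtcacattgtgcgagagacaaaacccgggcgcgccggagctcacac
FOS: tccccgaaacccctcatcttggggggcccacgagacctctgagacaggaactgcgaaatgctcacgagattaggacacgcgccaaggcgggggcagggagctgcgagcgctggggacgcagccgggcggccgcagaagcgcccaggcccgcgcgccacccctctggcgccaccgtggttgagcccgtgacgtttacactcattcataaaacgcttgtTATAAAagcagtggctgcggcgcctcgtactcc
EGR1: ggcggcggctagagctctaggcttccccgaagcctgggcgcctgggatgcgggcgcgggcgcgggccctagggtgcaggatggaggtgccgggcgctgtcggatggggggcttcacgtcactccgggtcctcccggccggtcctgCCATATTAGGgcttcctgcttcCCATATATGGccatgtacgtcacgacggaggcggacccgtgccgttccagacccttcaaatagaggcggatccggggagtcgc

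The word CANNTG was common, since 61.8% of 35116 such windows held at least 1. NEUROD4 held 2, starting 116 and 46 bases before the gene's start. NHLH1 and SRRM4 held 1 each, at 210 and 155 bases, and in both it was the form CAGATG, which on either strand was present in 12.2% of windows. EOMES and PPP1R17 held 1 CANNTG each, and NEUROG1 and NEUROG2 held none in this window. EGR1 held 2 CArG boxes, at 105 and 83 bases, against 1.16% of windows with any. FOS held a TATAAA at 33 bases, a word found in 10.7% of windows, and neither gene held the uninterrupted TGACGTCA, found in 1.65%.

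Among the progenitors NHLH1, a factor switched on as cells become neurons, was detected in 865 cells (62.9%). EOMES, the classical marker of cortical intermediate progenitors, was detected in 766 (55.7%). The proneural factors were detected in 704 cells (51.2%) for NEUROG2 and 217 (15.8%) for NEUROG1. NEUROD4 was detected in 582 (42.3%), and PPP1R17, a phosphatase regulator found in human intermediate progenitors, in 452 (32.8%). A separate row of the matrix counted an antisense gene of NEUROG2, and no source used here states whether counting was by strand, so reads of the pair may not be told apart.

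Most members lay close to the rule's limit. Exactly 2 markers were detected in 808 progenitors (58.7%), 3 in 360, 4 in 157, 5 in 44 and all 6 in 7. A further 3477 cells met the other conditions with exactly 1 marker and were left out. The most frequent exact pairs were NEUROG2 with NHLH1 in 137 cells and EOMES with NHLH1 in 130. The 3 excluding genes mattered as well: of 2612 cells with at least 2 markers, 1236 (47.3%) were left out, 800 of them with SLC17A7, 501 with COL3A1 and 320 with TTR.

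The marker combination differed between arrangements, which is given without a test because the rule used these genes. Over tags with at least 20 progenitors, EOMES was detected in 59.0% to 78.4% of progenitors in the 6 tags of 3DMono and in 76.3%, 77.8% and 79.6% in the 3 tags of 3DFusi. In 2D it was detected in 36.7%, 41.7% and 57.9% in the 3 tags of 2DMono and in 25.5% to 61.5% in the 8 of 2DCocu. NEUROD4 lay the other way, at 61.5% to 79.2% in 2DCocu and 42.1% to 70.0% in 2DMono, against 11.5% to 38.0% in 3DMono and 29.6% to 40.7% in 3DFusi. The ranges of 2DMono and 2DCocu did not overlap those of 3DMono and 3DFusi for NEUROD4, and for EOMES 2 tags crossed, the highest of 2DCocu and the lowest of 3DMono. The 4 tags of 2DProto2Fjo and 2DProto4Nic had NEUROD4 at 9.86% to 32.0%, within or below the 3D values. NHLH1 was at 84.3% and 85.9% in the tags of 2DProto2Fjo and 93.3% and 95.1% in those of 2DProto4Nic, above every tag of the other arrangements. PPP1R17 was lowest in 2DProto4Nic, at 4.88% and 6.67%.

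**Figure D1:**
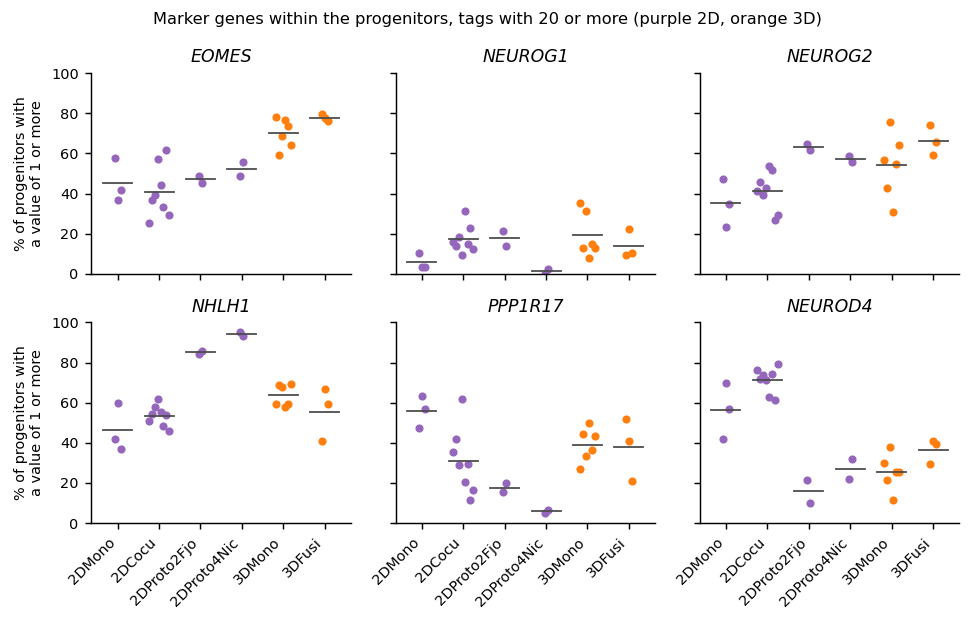
Percent of progenitors with a value of 1 or more (y axis) for each marker gene in tags with at least 20 progenitors, by arrangement (x axis); points are tags, lines are means. EOMES sits highest in 3DMono and 3DFusi, NEUROD4 in 2DCocu and 2DMono, and NHLH1 in 2DProto2Fjo and 2DProto4Nic.

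Progenitors had a median of 13788 counts per cell, against 12737 in the other cells. The tags with at least 20 of them held 21 to 113 progenitors and 234368 to 2720590 summed counts. Cell barcodes were shared between sublibraries for 2393 of 41192 barcodes, each time with the same tag, and no barcode repeated within a sublibrary. A doublet score marked 204 progenitors (14.8%) against 13.1% of all other cells. It marked 4.91% of the radial glia and 20.7% of the SLC17A7 neurons that are set beside them below. Among progenitors the marked share was 25.1% in 3DFusi and 6.82% in 2DCocu. The share of progenitors in the 8 sublibraries ran from 2.55% to 3.67%, a spread near that of sampling (chi-square 13.8 over 7 degrees of freedom, p = 0.0551).

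The share of cells that were progenitors ran from 0 to 7.34% over the 46 tags. It was 6.01% and 5.61% in 2DProto4Nic, 5.40% ± 1.67 (SD, n = 6) in 3DMono and 4.53% and 5.37% in 2DProto2Fjo. It was 3.28% ± 1.27 (SD, n = 12) in 2DCocu and 3.19% ± 0.903 (SD, n = 6) in 2DMono. The order differed at equal depth. In cells thinned to 5000 counts the share was 3.63% ± 1.07 (SD, n = 6) in 3DMono, 3.13% and 2.75% in 2DProto2Fjo, 2.69% and 1.65% in 2DProto4Nic, 1.83% ± 0.692 (SD, n = 12) in 2DCocu and 1.48% ± 0.935 (SD, n = 6) in 2DMono. Progenitors were rare in 2DProto3Wu (5 cells, 0.108% and 0.297%), 3DProto1For (9 cells, 0 to 0.548%) and 3DProto2Xia (10 cells, 0.107% to 0.960%). The 1 tag with none held 331 cells, and a count of 0 there allows a share of up to 0.906% (3 counts of the total, counting error only, as for every interval here). Since shares sum to a whole, a lower share does not separate fewer progenitors from more of other cells.

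3DFusi was split by tag number. Its 3 tags numbered 1 held 6.09% (AcCoc), 3.49% (AcMor) and 4.65% (Vehic) progenitors, and its 7 other tags held 0.189% to 1.95%, with no overlap. The labels do not say what a number stands for.

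**Figure D2:**
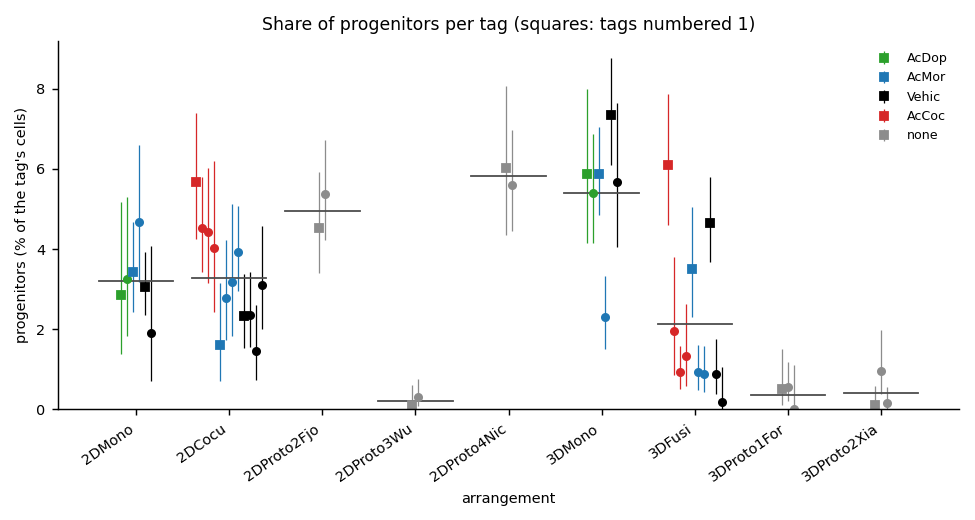
Progenitors as a percent of each tag's cells (y axis) by arrangement (x axis), with exact 95% binomial intervals; colours give the treatment code, squares the tags numbered 1 and lines the mean over tags. The 3DFusi tags numbered 1 lie between 3.49% and 6.09%, above the 7 others of that arrangement.

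For 3D against 2D, tags were compared within each treatment code and the differences averaged. The share was 2.21 percentage points higher in 3DMono than in 2DMono (two-sided exact permutation test, p = 0.0370, adjusted p = 0.0741 over 2 comparisons). All tags of 3DMono but 1 stood above every 2DMono tag; the exception, AcMor number 2, held 2.29%. The difference was 5.28 points over cells without COL3A1, TTR and SLC17A7 and 4.02 over Vehic tags alone. Neither this nor the next difference passed after adjustment. Of 6 alternatives that left out no tag, 5 kept that call for 3DMono, and in thinned cells the difference passed (exact permutation adjusted p = 0.0370). The difference of 3DFusi from 2DCocu was -1.20 points (exact permutation p = 0.0767, adjusted p = 0.0767). With tags averaged by number it was -1.18 points (exact permutation p = 0.229), and it was -0.347 with at least 3 markers, -0.385 in thinned cells and -0.402 over Vehic tags alone. With 1 tag left out at a time, the difference still did not pass in 19 of 22 runs. The runs without 1 of the 3 tags of 3DFusi numbered 1, AcCoc, AcMor or Vehic, gave -1.59, -1.48 or -1.65 points. Those tags had been seen to be high, so no p-value is given for leaving them out. Of those 3 tags, AcMor and Vehic lay within the range of 2DCocu and AcCoc above it.

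Treatment codes were compared with Vehic inside each arrangement, 8 comparisons in all. In 2DCocu the 4 AcCoc tags held 5.67%, 4.51%, 4.42% and 4.02% progenitors, and the 4 Vehic tags 2.33%, 2.36%, 1.46% and 3.10%. Every AcCoc tag stood above every Vehic tag, by 2.34 points on average. The difference was 1.24 points in cells thinned to 5000 counts and 1.37 with at least 3 markers. SLC17A7 neurons were also more frequent in these tags, at 6.01% to 12.7% with AcCoc and 1.86% to 3.08% with Vehic, and their part in the difference was not tested. The two-sided exact permutation p was 0.0286, the smallest this design allows, and 0.229 after adjustment over the 8, so the difference did not pass. In 3DFusi the AcCoc difference was 0.669 points (exact permutation p = 0.629), or 0.878 points paired by number, higher in 3 of 3 pairs (exact p = 0.25, the smallest possible). The change in effect between 2DCocu and 3DFusi was tested directly and did not pass (exact permutation adjusted p = 0.551). None of the other comparisons passed, with adjusted p from 0.762 to 0.9 in exact permutation tests.

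Many progenitors carried cell cycle genes. At least 2 of 10 proliferation genes, which include MKI67 and TOP2A, were detected in 625 of 1376 progenitors (45.4%), 1698 of 4707 radial glia (36.1%) and 16.8% of 2913 SLC17A7 neurons, pooled over tags. Radial glia here are cells with at least 2 of SOX2, HES5, PAX6, SLC1A3, HOPX and FABP7 and none of the 6 markers, the excluding genes or STMN2; the neurons carry SLC17A7 and STMN2. With each cell thinned to 5000 counts the pooled shares were 38.4%, 28.8% and 7.44%. Within tags the order of progenitors and radial glia was not fixed. Of 24 tags with at least 20 progenitors, the cycling share was higher in progenitors in 15 and lower in 9, and in thinned cells higher in 18 and lower in 6. It was higher in 8 of 8 tags of 2DCocu (mean 55.0% against 24.2%) and 3 of 3 of 3DFusi, and lower in the tags of 2DProto4Nic (19.5% and 29.3% against 54.9% and 48.0%) and 2DProto2Fjo (39.2% and 23.9% against 41.8% and 40.6%). In 3DMono it was higher in 2 of 6 tags, and in 4 of 6 in thinned cells. Progenitors stood above neurons in 23 of 23 tags that had at least 20 of each. By tag, cycling progenitors made up 32.4% to 53.8% in 3DMono and 56.7%, 60.0% and 71.1% in 2DMono. These ranges did not overlap, but they did in thinned cells, at 30.6% to 43.6% in 3DMono and 42.4% to 71.1% in 2DMono, and with at least 3 cycling genes, at 29.7% to 46.2% and 41.7% to 63.2%. The difference within treatment codes was -17.9 points in 3DMono (two-sided exact permutation p = 0.111, adjusted p = 0.222), and this design cannot go below 0.0556. It was taken within AcMor and Vehic, since no AcDop tag of 2DMono had 20 progenitors. It was -11.9 points with at least 3 cycling genes. In 3DFusi 3 tags held 56.6%, 57.4% and 63.0%, and in 2DCocu 8 tags held 42.1% to 70.8%, so the groups overlapped (exact permutation p = 0.4375), and the sign of this difference turned under several alternatives.

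Levels below are CPM, counts scaled to a common total, summed over the progenitors of a tag, over the 24 tags with at least 20, with the same tags' radial glia (24 tags) and SLC17A7 neurons (23 tags) beside them. Of 21 listed Notch pathway genes, 9 had a higher median in progenitors than in radial glia and 16 than in neurons. The ligand DLL1 had a median of 56.4 CPM in progenitors, 17.8 in radial glia and 12.1 in neurons, and DLL3, a Delta protein that acts inside the cell, 19.5, 2.10 and 4.56. Both were higher in progenitors than in radial glia in 24 of 24 tags and than in neurons in 23 of 23. MAML3, a coactivator of the Notch complex, had medians of 1215 CPM in progenitors, 277 in radial glia and 532 in neurons. JAG1, another ligand, was below radial glia in 20 of 24 tags.

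The receptors stood lower in progenitors than in radial glia in every tag. NOTCH1 had medians of 116 CPM in progenitors and 196 in radial glia, NOTCH2 114 and 304, and NOTCH3 21.0 and 81.6. In neurons they were lower still, at 37.2, 65.9 and 10.8 CPM. HES1, a target that holds cells in the stem cell state, had a median of 5.63 CPM in progenitors against 29.5 in radial glia, below it in 24 of 24 tags. HES6, which opposes HES1, was higher than in radial glia in 22 of 24 tags.

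Genes of the stem cell state followed the receptors. VIM, an intermediate filament of radial glia, had a median of 73.9 CPM in progenitors (24.4 to 203 over tags), 304 in radial glia and 42.2 in neurons. NES, TNC, HOPX and SLC1A3 were likewise below radial glia in 24 of 24 tags, of which SLC1A3 and HOPX also entered the rule for radial glia. PAX6 did not follow them, with 12 tags above radial glia and 12 below.

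Several genes of the step to a neuron were highest in progenitors. INSM1, a zinc finger factor that drives formation of intermediate progenitors, had medians of 21.8 CPM in progenitors (6.91 to 39.3 over tags), 1.21 in radial glia and 3.86 in neurons. The neuronal RNA-binding proteins ELAVL2 and ELAVL4 had medians of 358 and 202 CPM in progenitors against 170 and 95.2 in neurons. All 3 were above both other sets in every tag. Of the microtubule proteins of neurons, MAPT lay between, at 124 CPM in progenitors, 24.4 in radial glia and 256 in neurons. STMN2, which was used in both comparison rules, was at 162 CPM in progenitors and 263 in neurons. The 12 listed neuronal genes summed to medians of 4138 CPM in progenitors, 1652 in radial glia and 5000 in neurons. All 12 had a higher median in progenitors than in radial glia, and 3 than in neurons. The sums were highest in 2DProto4Nic, at 5584 and 6239 CPM.

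**Figure D3:**
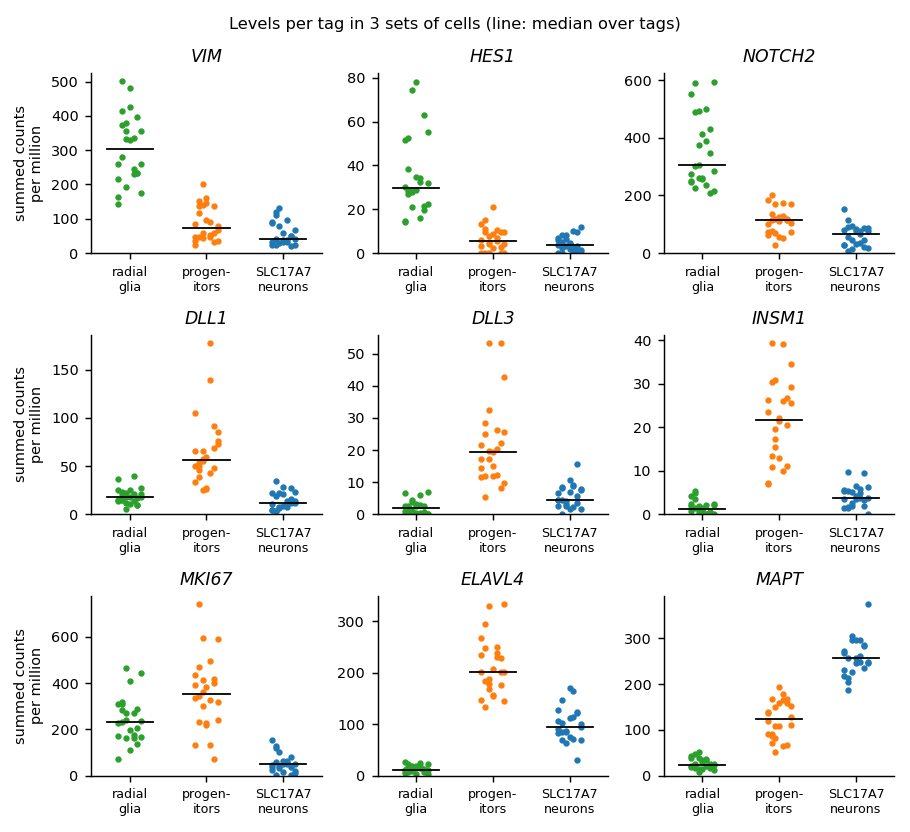
Summed CPM (y axis, from 0) of 9 genes in radial glia, progenitors and SLC17A7 neurons of the same tags; points are tags with at least 20 cells of a set and lines are medians. VIM, HES1 and NOTCH2 are highest in radial glia, DLL1, DLL3, INSM1 and ELAVL4 in progenitors, and MAPT in neurons.

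The cortical label was checked against factors of the dorsal telencephalon. EMX1 had a median of 39.1 CPM in progenitors, above radial glia (11.4) in 24 of 24 tags, and EMX2 and LHX2 had medians of 41.3 and 102. TBR1, a factor of early cortical neurons, was at 49.0 CPM, between radial glia (1.95) and neurons (109). Markers of other cell types and regions ranged widely. The 8 microglial genes summed to 0 to 21.7 CPM per tag, with C1QA, C1QB, CX3CR1 and TYROBP at 0, and the 8 endothelial genes to 4.04 to 31.4. The 8 astrocyte genes summed to 222 to 790 CPM, near radial glia by median (403 against 389). The upper ends were 305 CPM for hindbrain, spinal cord and cerebellum (23 genes), 209 for diencephalon and midbrain (14), 253 for choroid plexus (8) and 249.6 for ciliated cells (8), with medians of 39.9, 111, 50.7 and 101. Their part in the results was not tested. The 8 mesenchymal genes summed to 15.2 to 946 CPM and the 8 muscle genes to 13.2 to 1736. The highest mesenchymal sum was in 2DCocu AcCoc 3, with COL1A1 at 834 CPM, and both tags of 2DProto4Nic held 226 and 396, against a median of 72.6. The muscle genes were high in 3DMono Vehic 2 and 3DFusi Vehic 1, with TTN at 1490.1 and 988 CPM, against a median sum of 24.2. Cajal-Retzius genes, of early cortical neurons that make reelin, were highest in 2DProto2Fjo, at 1180.0 and 1400.2 CPM against a median of 214.

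Genes were then compared between 3D and 2D inside the progenitors, on counts summed per tag with edgeR's quasi-likelihood test and Benjamini-Hochberg adjustment over all genes tested (threshold 0.05). Values of single tags are edgeR's CPM. 3DMono (6 tags, 384 progenitors) was compared with 2DMono (3 tags, 128 progenitors), with treatment code as covariate. No AcDop tag of 2DMono had 20 progenitors, so the 2 AcDop tags of 3DMono added to the estimate of spread and not to the difference. That difference rests on AcMor and Vehic tags, with only 1 Vehic tag in 2DMono. In this comparison 532 of 8775 genes changed, 6.06% of those tested. Of these, 198 were higher in 3DMono (2.26%) and 334 lower (3.81%). For 3DFusi against 2DCocu (8 tags, 298 progenitors) only the 3 tags numbered 1 (157 progenitors) had enough cells. The numbers pair tags in 3DFusi, so these 3 may share a source that its other 7 tags do not, while the test counts them as 3 replicates, and no fit with the number as a block could be made; every gene result for 3DFusi rests on them. There 1343 of 9680 genes changed (13.9%), 607 higher (6.27%) and 736 lower (7.6%). The tags of the 2 groups did not overlap for 13.0% of genes tested in the first comparison and 13.1% in the second. The comparisons share no tags. Of 8553 genes tested in both, 277 were called in both, which is 53.3% of the 520 called in the first and 23.6% of the 1175 called in the second. Of these 277, 97 were higher in 3D both times, 178 lower both times, and 2 (KCNIP4 and SDC2, named after their values were seen) opposite. The number called in 3DMono was 318 without 2DMono AcMor 1, and in 3DFusi 748 without AcCoc 1, 715 without Vehic 1 and 759 with each progenitor thinned to 5000 counts.

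Of the genes for the migration and adhesion of newborn neurons, 9 of 14 tested were lower in 3DMono and none higher, beside 3.81% and 2.26% of all genes, with a median log2 difference of -1.01 over the 14 against 0.02 over all genes. This list and the others were chosen with earlier results of these data known, so such counts describe the lists and do not test them. SEMA3C, a secreted guidance cue made by cortical intermediate progenitors, was at 465, 646 and 744 CPM in the 3 tags of 2DMono. In the 6 tags of 3DMono it was at 3.55 to 28.8, with a median of 17.2. The groups were far apart, with a log2 difference of -5.09 ± 0.31 (SE; edgeR adjusted p = 8.84e-07).

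UNC5D, a netrin receptor found in multipolar migrating cortical cells, was at 946, 1495 and 1804 CPM in 2DMono and 22.1 to 87.0 in 3DMono (median 60.6; log2 difference -4.64 ± 0.41, edgeR adjusted p = 0.000225). The reelin receptor LRP8 was lower by a log2 difference of -1.43 ± 0.17 (edgeR adjusted p = 0.00013), and NRP1, a semaphorin co-receptor, by -0.98 ± 0.24 (edgeR adjusted p = 0.0227). NRP1 lost its call without 2DMono AcMor 1, 2DMono AcMor 2 or 3DMono AcMor 1. CNTN2 and ROBO2, of axon growth and guidance, and the semaphorin receptor PLXNA2 were also lower, with log2 differences of -2.95, -0.65 and -1.04. ROBO2 was called in 4 of 16 alternatives and PLXNA2 in 11, and each of the 3 lost its call without 2DMono AcMor 2 or without 2DMono Vehic 1. In radial glia the same contrast gave log2 differences of -3.81 for SEMA3C, -1.30 for UNC5D, -0.41 for LRP8, -1.22 for NRP1, -2.18 for PLXNA2 and 1.57 for ROBO2. The difference between the 2 sets of cells was not tested. Before edgeR's scaling, progenitors of 2DProto2Fjo held SEMA3C at 35.8 and 40.4 CPM, within the range of 3DFusi (13.0 to 40.5). They held UNC5D at 28.8 and 37.7, within that of 3DMono (22.4 to 84.2). Those of 2DProto4Nic held SEMA3C at 125 and 94.5 and UNC5D at 99.4 and 103.

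3DFusi against 2DCocu had 6 of 14 lower and 2 higher, beside 7.6% and 6.27% of all genes, and a median log2 difference of -1.04 against -0.02 over all genes. SEMA3C was at 21.8, 13.3 and 43.0 CPM in the 3 tags of 3DFusi and at 62.9 to 423 in the 8 of 2DCocu (median 275). The log2 difference was -3.20 ± 0.58 (edgeR adjusted p = 0.00678), and the call was lost without 3DFusi AcCoc 1. LRP8, NRP1, ROBO2 and CNTN2 were lower too, with log2 differences of -1.49, -1.15, -0.92 and -3.48 (edgeR adjusted p from 1.46e-05 to 0.00142). When cells were thinned to 5000 counts before progenitors were chosen, LRP8, NRP1 and ROBO2 lost their calls, at -0.89, -0.66 and -0.46 (edgeR adjusted p = 0.123, 0.376 and 0.33), and SEMA3C was at -5.38. UNC5D did not pass (log2 difference -1.83 ± 0.65, edgeR adjusted p = 0.113). The 2 that rose were EPHA3, an ephrin receptor, and TENM4, a teneurin adhesion protein, with log2 differences of 1.24 and 0.82 (TENM4 1.46 with the same thinning). In radial glia this contrast gave -1.64 for SEMA3C, -1.83 for LRP8, -0.75 for NRP1, 0.79 for ROBO2, 1.68 for EPHA3 and 0.18 for TENM4.

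SRRM4, a splicing factor that includes neuronal microexons, was lower in both. It was at 750, 935 and 589 CPM in 2DMono and 147 to 231 in 3DMono (median 208), a log2 difference of -1.85 ± 0.19 (edgeR adjusted p = 4.67e-05). It was at 180, 237 and 292 in 3DFusi and 548 to 902 in 2DCocu (median 754), a log2 difference of -1.67 ± 0.20 (edgeR adjusted p = 2.37e-05). No tag of a 3D arrangement reached the lowest 2D tag of its comparison. Before edgeR's scaling, the tags of 2DProto2Fjo held 364 and 380 CPM, below every tag of 2DMono and 2DCocu, and those of 2DProto4Nic 534 and 555, above the lowest of 2DMono (509). In radial glia SRRM4 stood at mean CPM of 17.6 in 2DMono and 19.0 in 3DMono, and of 25.7 in 2DCocu and 13.6 in 3DFusi (log2 difference -0.82, edgeR adjusted p = 0.107). In the list of young neuron genes, SRRM4 and MYT1, a zinc finger factor, were the only ones of 12 tested that were lower in 3DMono, and none was higher, beside 3.81% and 2.26% of all genes. In 3DFusi the same 2 of 13 were lower and ELAVL3, NEUROD6 and SSTR2 higher, beside 7.6% and 6.27% of all genes, with list medians of 0.12 and 0.28 on the log2 scale. MYT1 was called in 5 of 16 alternatives in 3DMono and lost its call in 3DFusi with cells thinned first (-0.85). Radial glia gave 0.24 in 3DMono and 1.08 in 3DFusi for MYT1, and 0.23 in 3DFusi for ELAVL3. ELAVL3 was called in 9 of 18 and SSTR2 in 7 of 15.

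Of the dorsal telencephalic genes, 2 of 10 tested were lower in 3DMono and none higher, beside 3.81% and 2.26% of all genes. In 3DFusi 2 of 11 were lower and 2 higher, beside 7.6% and 6.27%. PAX6 and NFIB were those lower in both comparisons, and BHLHE22 and SOX5, factors of cortical projection neurons, were higher in 3DFusi by 1.91 and 0.57. Both of these lost their calls without 3DFusi AcCoc 1, BHLHE22 also without Vehic 1, and SOX5 when tags with 10 progenitors entered (0.34) and with cells thinned first. Over all alternatives that left out no tag, SOX5 ran from 0.34 to 0.66. PAX6 had log2 differences of -1.04 in 3DMono and -1.41 in 3DFusi, and NFIB, a nuclear factor I protein, of -0.94 and -0.81. PAX6 in 3DMono was called in 11 of 16 alternatives and was lost without 2DMono AcMor 2, 3DMono AcMor 1 or 3DMono AcMor 2. In 3DFusi both PAX6 and NFIB lost their calls with cells thinned before progenitors were chosen, at -1.32 and -0.54. SLC17A6, the early vesicular glutamate transporter, was at 87.5, 109 and 59.0 CPM in 2DMono and 10.5 to 17.8 in 3DMono (log2 difference -2.49 ± 0.34, edgeR adjusted p = 0.000466). In 3DFusi its log2 difference was -1.22, called in 10 of 18 alternatives, and it was -0.51 without 3DFusi AcCoc 1 (edgeR adjusted p = 0.397). CUX2, a factor of upper layer neurons, was higher in 3DMono (log2 difference 0.87, edgeR adjusted p = 0.0375), called in 8 of 16 alternatives, and MEF2C, a factor of maturing neurons, was higher in 3DFusi (1.24, edgeR adjusted p = 0.0468), called in 7 of 16. Without doublets MEF2C turned to -0.05. Radial glia gave 1.17 for CUX2 in 3DMono and -0.48 for MEF2C in 3DFusi. NEUROD6, of the excitatory lineage, moved the other way in 3DFusi, at 106, 48.8 and 50.9 CPM against 3.51 to 22.3 in 2DCocu (log2 difference 2.71 ± 0.29, edgeR adjusted p = 8.61e-06).

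Some genes were close to absent from progenitors of 3DMono and 3DFusi. GPR139, an orphan receptor of the brain, was at 60.4, 101 and 64.1 CPM in 2DMono and at 0 in 5 of 6 tags of 3DMono, with 1.73 in the other. In 2DCocu it was at 31.9 to 91.5 (median 41.5), and in 3DFusi at 0, 2.22 and 0, a log2 difference of -6.78. With cells thinned before progenitors were chosen that call was lost, though the difference was still -6.58. The homeobox gene HDX was at 66.7, 63.8 and 66.2 CPM in 2DMono and 0 to 7.10 in 3DMono (log2 difference -4.46 ± 0.46, edgeR adjusted p = 4.67e-05). In 3DFusi it was at 2.49, 0 and 0.661 against 38.6 to 117 in 2DCocu. Radial glia of the same comparisons gave log2 differences of -4.02 and -3.69 for HDX, and GPR139 did not pass the filter in them. Format did not sort every protocol: before edgeR's scaling, GPR139 was at 0 in both tags of 2DProto4Nic and HDX at 4.76 and 7.55, while 2DProto2Fjo had HDX at 48.8 and 75.0.

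Of 15 listed immediate early genes, which are induced within minutes of many stimuli and during tissue dissociation, 4 were tested in 3DMono and 6 in 3DFusi. FOS and EGR1 were higher in the first and FOS, EGR1 and JUN in the second, and none was lower. FOS was at 8.34, 3.76 and 3.60 CPM in 2DMono and 21.9 to 51.0 in 3DMono (median 37.9), a log2 difference of 2.87 ± 0.47 (edgeR adjusted p = 0.00176). EGR1 was at 12.5, 26.3 and 22.3 in 2DMono and 72.0 to 320 in 3DMono (log2 difference 2.70 ± 0.47, edgeR adjusted p = 0.0067). In 3DFusi FOS was at 87.1, 82.1 and 64.1 against 0 to 7.50 in 2DCocu, and EGR1 at 233, 104 and 151 against 7.03 to 30.7. Both comparisons kept the groups apart. The log2 differences of FOS and EGR1 in 3DFusi were 4.11 ± 0.39 and 3.05 ± 0.23 (EGR1 5.07 with cells thinned first), and JUN, which pairs with FOS, also rose, by 2.21, a call lost without 3DFusi AcCoc 1. Beside these 2 of 4 and 3 of 6, 2.26% and 6.27% of all genes were higher. A gene could pass the filter by its level in 1 group alone. FOS, at most 8.34 CPM in 2DMono and 7.50 in 2DCocu, passed through its level in 3D, so these fractions are not a test of the list. Radial glia of the same comparisons gave 2.34 and 2.86 for FOS and 2.16 and 1.93 for EGR1. The labels describe papain dissociation of 3D cultures but give no harvest step for 2D cultures, so dissociation and format cannot be told apart.

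**Figure D4:**
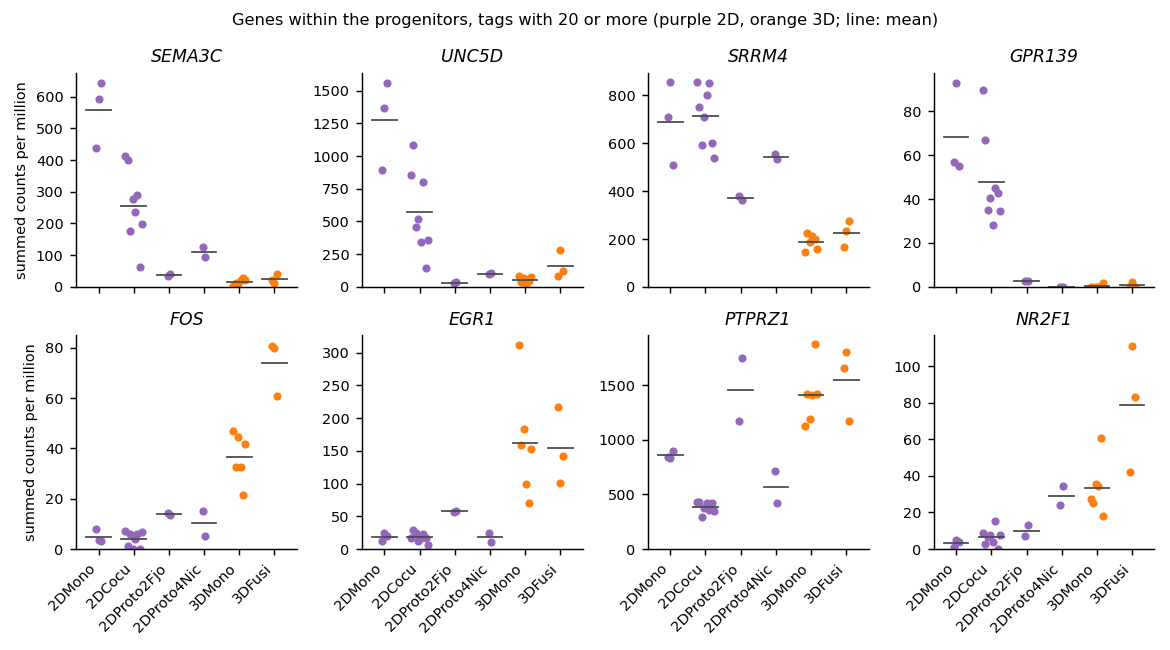
Summed CPM (y axis, from 0) of 8 genes in the progenitors of each tag with at least 20, by arrangement (x axis); points are tags, lines are means. SEMA3C, UNC5D, SRRM4 and GPR139 are highest in 2DMono and 2DCocu, and FOS and EGR1 in 3DMono and 3DFusi, with the 2D protocols often apart from the other 2D tags.

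Part of the radial glial list was higher in progenitors of 3DMono or 3DFusi than in those of 2DMono or 2DCocu. In 3DFusi 6 of 9 tested were higher and PAX6 was lower, beside 6.27% and 7.6% of all genes, with a median log2 difference of 1.48. In 3DMono 3 of 8 were higher (PTPRZ1, LIFR and TNC) and PAX6 again lower, beside 2.26% and 3.81% of all genes, with a median of 0.64. PTPRZ1, a receptor phosphatase of radial glia, was at 1789, 1853 and 1244 CPM in 3DFusi and 343 to 473 in 2DCocu (median 400; log2 difference 1.99 ± 0.13, edgeR adjusted p = 4.75e-08). Before edgeR's scaling, PTPRZ1 was at 1171 and 1747 CPM in 2DProto2Fjo, within the range of 3DMono (1130 to 1878), and at 711 and 425 in 2DProto4Nic. In 3DMono its log2 difference was 0.65 ± 0.17 (edgeR adjusted p = 0.0412), called in 5 of 16 alternatives and lost without any 1 of the 9 tags. LIFR, a cytokine receptor, was called there in 6 of 16, with a log2 difference of 0.86, or 0.47 without doublets. Radial glia of the same comparisons gave 0.79 and 1.17 for PTPRZ1 and 1.43 and 0.67 for LIFR in 3DMono and 3DFusi, and whether these differ from the progenitors' values was not tested. FABP7, a lipid-binding protein of radial glia, was at 49.8, 51.0 and 49.6 CPM in 3DFusi against 0 to 25.5 in 2DCocu. NES and SLC1A3 were higher there by 1.56 and 1.18, and TNC in 3DMono by 1.53. Radial glia gave -0.51 for NES, 0.42 for SLC1A3 and 1.06 for FABP7 in 3DFusi, and 0.59 for TNC in 3DMono. The call of NES was lost without 3DFusi Vehic 1, and that of TNC without doublets or when tags with 10 progenitors entered (0.57). The share of progenitors called doublets was 25.1% in 3DFusi and 6.82% in 2DCocu, and 14.8% in 3DMono and 15.7% in 2DMono. Its part in these differences was not tested. Without the cells called doublets, PTPRZ1, FABP7 and NES kept their calls in 3DFusi, and SLC1A3, LIFR and the receptor NOTCH2 lost theirs.

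Of the Notch genes, none of 10 tested passed in 3DMono, beside 6.06% of all genes, where DLL1 was at 45.9 to 183 CPM against 26.3 to 41.7 in 2DMono (log2 difference 0.89 ± 0.32, edgeR adjusted p = 0.139). In 3DFusi 3 of 10 passed, beside 13.9% of all genes. NOTCH2 was higher (log2 difference 1.09 ± 0.20), and NOTCH1 (-1.04 ± 0.25) and RBPJ, the pathway's DNA-binding protein (-0.75 ± 0.15), were lower. Radial glia gave 0.92 for NOTCH2, -0.75 for NOTCH1 and 0.38 for RBPJ. NOTCH1 lost its call without any 1 of the 3 tags of 3DFusi, and NOTCH2 without AcCoc 1. NOTCH1 and RBPJ (-0.47) lost theirs with cells thinned before progenitors were chosen. NOTCH1 stayed between -1.45 and -0.95 over all alternatives that left out no tag. RBPJ also lost its call when tags with 10 progenitors entered (-0.44). NOTCH2 was 0.57 without doublets. None of the 9 cycling genes tested passed in either comparison.

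NR2F1, a nuclear receptor graded across the cortex, was at 0, 7.51 and 4.32 CPM in 2DMono and 17.3 to 61.7 in 3DMono, and at 45.4, 115 and 87.9 in 3DFusi against 0 to 14.2 in 2DCocu. The log2 differences were 3.41 ± 0.63 and 3.43 ± 0.36 (edgeR adjusted p = 0.00473 and 8.62e-06), and radial glia gave 2.80 and 1.25. Before edgeR's scaling, NR2F1 was at 24.2 and 34.3 CPM in 2DProto4Nic, within the range of 3DMono (17.9 to 60.7), and at 7.31 and 12.9 in 2DProto2Fjo. KLHL14, a kelch-like protein, rose in both, by 4.76 and 4.43 on the log2 scale. In 2DMono it was at 0, 0 and 2.88 CPM, and without 2DMono Vehic 1, the tag above 0, the fitted difference was 8.00, so its size in 3DMono rests on that tag. DLX6-AS1, a transcript of the GABAergic lineage, was at 266, 175 and 210 CPM in 3DFusi and 0 to 43.6 in 2DCocu (log2 difference 3.93 ± 0.69, edgeR adjusted p = 0.00675; the call was lost without 3DFusi AcCoc 1). The 12 listed GABAergic genes summed to 99.5 to 134 CPM in 3DFusi and 17.1 to 98.9 in 2DCocu, with NKX2-1 and GSX2 at 0, and radial glia showed DLX6-AS1 at a mean of 80.4 against 4.55. The part of cells of that lineage was not tested. MOXD1, a monooxygenase-like protein, and STMN4, a stathmin, were also higher in 3DFusi, by 4.47 and 3.33. Radial glia gave 3.93 and 3.37 for them.

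Of the other lists, single genes were lower in 3D and others were higher, and only some are given here. HK2, a glycolytic enzyme induced by low oxygen, had log2 differences of -2.35 in 3DMono and -2.64 in 3DFusi, and VEGFA, another such gene, -2.80 in 3DFusi, a call lost without Vehic 1. With cells thinned before progenitors were chosen both lost their calls in 3DFusi, HK2 at -5.99 and VEGFA at -2.09, and VEGFA was -1.76 when tags with 10 progenitors entered. The list as a whole had 1 lower and none higher of 9 tested in 3DMono, beside 3.81% and 2.26% of all genes, with a median log2 difference of 0.52. In 3DFusi it had 2 lower and 1 higher of 9, beside 7.6% and 6.27%, with a median of 0.02. DNAH5, of motile cilia, was lower in both (-2.49 and -2.06, the second -3.98 with cells thinned first). Radial glia of the same comparisons gave -3.24 and -1.51 for DNAH5, -0.56 and -0.87 for HK2, and -1.93 for VEGFA in 3DFusi. COL1A1, of fibroblasts, was lower in 3DMono, at 5.01 to 20.7 CPM against 75.0, 45.1 and 301 in 2DMono. The 8 mesenchymal genes summed to 59.1 to 314 CPM in progenitors of 2DMono and 20.8 to 75.9 in 3DMono, although COL3A1 was at 0 by the rule, and radial glia of 2DMono held COL1A1 at a mean of 838. The part of mesenchymal RNA in this difference was not tested.

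Progenitors with and without detected EOMES were then compared inside the same tags, in 10 tags with at least 20 of each (382 and 309 cells). By the rule, those without EOMES had at least 2 of the other markers, so the comparison is between marker combinations, in which EOMES and the other markers cannot be told apart, at median depths of 14090 and 13344 counts over all 766 and 610 such cells. It called 88 of 7507 genes (1.17%), 61 higher with EOMES (0.813%) and 27 lower (0.36%). All 10 tags had the same sign for 1.21% of genes. Genes outside the lists were named only if all 10 tags had the same sign, so 10 of 10 for them follows from that choice. HJURP, which loads centromeric histone, was at 8.87 to 100 CPM with EOMES (median 36.0) and 7.28 to 32.5 without (median 15.5). It was higher in 10 of 10 tags, with a log2 difference of 1.31 ± 0.20 (edgeR adjusted p = 0.00629).

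HMGB2, a chromatin protein of dividing cells, was higher by 1.13 on the log2 scale, in 10 of 10 tags (edgeR adjusted p = 0.0161). For the listed cycling genes the median log2 difference over 7 tested was 1.10 against -0.01 over all genes, and none passed; MKI67 had 1.20 ± 0.31 (edgeR adjusted p = 0.085). Pooled over all tags and not within them, 50.5% of the 766 progenitors with EOMES and 39.0% of the 610 without were cycling. At equal depth these were 44.4% and 30.8%. SLCO5A1, an organic anion transporter family member, was at 436 to 1365 CPM with EOMES and 244 to 1210 without, higher in 10 of 10 tags (log2 difference 0.93 ± 0.13, edgeR adjusted p = 0.00489).

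Among the genes lower with EOMES, NRG1, the ligand neuregulin, was at 120 to 2839 CPM with EOMES (median 678) and 312 to 3777 without (median 1385), lower in 10 of 10 tags (log2 difference -0.96 ± 0.16, edgeR adjusted p = 0.0145), a call that was lost without doublets. LIMCH1, which regulates myosin, FAT4, a giant cadherin, and SHC3, a neuronal adaptor of receptor kinases, were lower in 10 of 10 tags, with log2 differences of -1.03, -0.75 and -0.69 (edgeR adjusted p from 0.00477 to 0.00866). Of 14 migration genes tested, EPHA3, NRP1 and TENM4 were higher with EOMES and none lower, beside 0.813% and 0.36% of all genes, with differences of 0.84, 0.71 and 0.54. EPHA3 and NRP1 kept their calls in 5 and 6 of 16 alternatives, and TENM4 lost its call without 3DMono AcMor 1. None of the 8 radial glial and 12 neuronal genes tested passed. The number called was 403 when tags with 10 of each kind entered. Single tags moved it by more than 1.5 times: it was 40 to 53 without 2DCocu AcCoc 2, 2DCocu AcMor 4, 2DMono Vehic 1, 3DMono AcDop 2, 3DMono AcMor 1 or 3DMono Vehic 1, 150 without 2DProto4Nic 2 and 190 without 2DProto2Fjo 1.

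**Figure D5:**
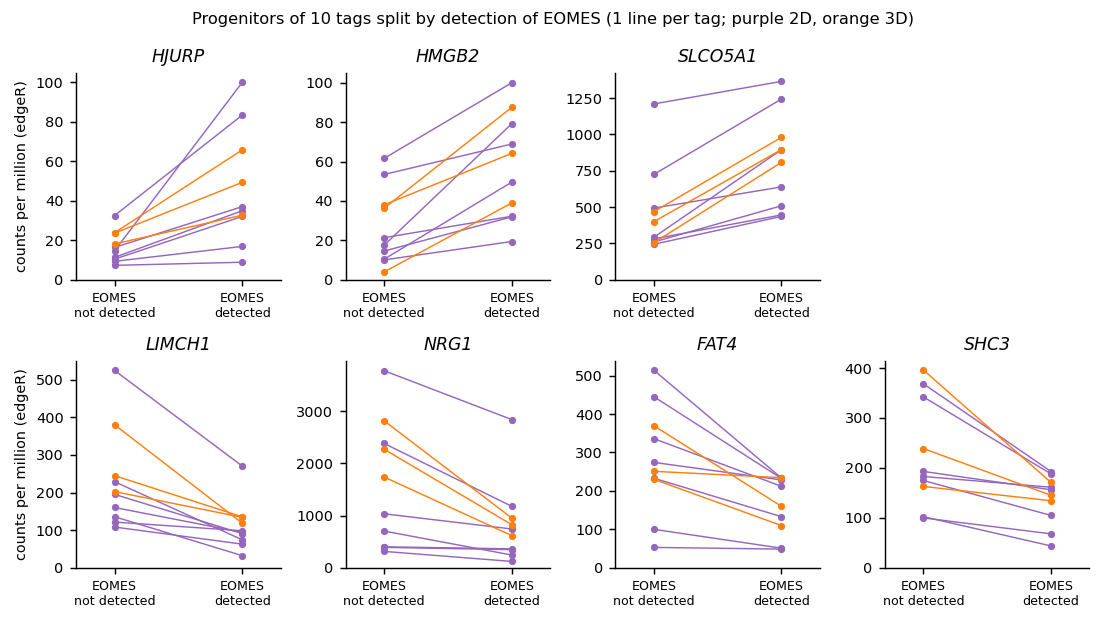
edgeR's CPM (y axis, from 0) of 7 genes in progenitors without and with detected EOMES (x axis); each line joins the 2 values of 1 of 10 tags. HJURP, HMGB2 and SLCO5A1 rise in 10 of 10 tags, and LIMCH1, NRG1, FAT4 and SHC3 fall in 10 of 10, which was required for these genes to be named.

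Gene tests of the treatment codes could be made in 2DCocu and 3DMono, with 2 or 3 tags a group. edgeR called 0 of 9212 genes for AcCoc (3 tags against 3) and 0 for AcMor (2 against 3) in 2DCocu. It called 0 of 9198 for AcDop and for AcMor (2 against 2 each) in 3DMono. At an unadjusted p under 0.05 the numbers were 570, 623, 375 and 376, and DESeq2 called 12, 2, 1 and 5. Leaving out 1 tag gave up to 30, 14, 15 and 47 calls. In 2DMono only 1 Vehic tag, and in 3DFusi only 1 tag of each code, had 20 progenitors, so no such test was made there.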

How the data were processed

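The deposited file is 1 matrix of 60286 genes by 43693 cells that pools 8 sublibraries, and the cell names give tag and sublibrary. The deposited values are expected counts per gene and cell (54.3% of entries are whole), made with Salmon 1.7.0 and alevin against hg38 and handled in Seurat 4.1.1, per the submitters' processing notes. Which annotation and strand setting were used is not given in the sources used here. The deposited cells had at least 1006 genes and at most 10.0% mitochondrial counts.

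The members and gene lists were chosen with earlier results of these data known. Values were summed over the progenitors of a tag with at least 20 and rounded. edgeR 4.0.16 (filterByExpr, TMM, robust quasi-likelihood) tested all genes that passed its filter, with treatment code as covariate and Benjamini-Hochberg adjustment. The 9 genes of the rule stayed in the fit and the number tested and were left out of the counts of genes called. Of 200 changed genes in simulated data, 35%, 39% and 87% of those changed 2-fold were recovered for 3DMono, 3DFusi and EOMES, and 87%, 97% and 97% of those changed 4-fold. Shares were compared by exact permutation of tags within treatment codes. Genes named are those of the lists and, of other called genes whose groups did not overlap, the 10 largest rises and falls. For EOMES, the same sign in every tag took the place of groups that did not overlap. Doublets were scored by simulation over 2000 genes and 100 neighbours; 5737 cells (13.1%) were called and kept, and left out as an alternative. Thinning to 5000 counts left out 20 progenitors and 1360 cells in all. Numbers were taken to pair tags in 3DFusi, where deviations from the treatment means correlated at 0.138 to 0.566 in 9 of 9 same-numbered pairs. Other alternatives were DESeq2 1.42.0, other normalization, no filter, other marker thresholds and leaving out tags. Some genes of the lists are not reported here.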

Additional observations from a re-analysis of the deposited data

Results flagged for a closer look

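In 89 groups of 4 to 10 tags tested for a tag that stands apart from the rest, 7 were flagged. The limit used flags about 1 in 20 groups of normally distributed values. CPM with values at 0 are not such values, so the rate of flags by chance is not known here. Values are edgeR's CPM in progenitors. GPR139 stood at 1.73 in 3DMono Vehic 2 and at 0 in the other 5 tags of 3DMono. KLHL14 was 14.1 in 2DCocu Vehic 4, where the nearest other tag of 2DCocu had 3.04. NEUROD6 was 22.3 in 2DCocu AcCoc 2, with the nearest tag at 12.3. NOTCH2 was 114 in 2DCocu Vehic 1, with the nearest at 82.7. Among progenitors with EOMES, 2DMono Vehic 1 held LIMCH1 at 270.4 (nearest 135) and NRG1 at 2839 (nearest 1175). Among those without EOMES, 2DProto4Nic 1 held SLCO5A1 at 1210.0, with the nearest at 725.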

How the results depend on the processing

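The sign of the cycling difference between 3DFusi and 2DCocu turned to -1.16 points with at least 3 cycling genes, -8.55 in thinned cells, -4.74 without doublets and -0.526 without 3DFusi AcMor 1 (-0.526 to 11.6 with 1 tag left out). That of 3DMono was -11.9 with at least 3 cycling genes, -14.1 in thinned cells, -19.4 without doublets and -22.5 to -13.3 with 1 tag left out. The share difference for 3DMono was 2.14 points in thinned cells (exact permutation adjusted p = 0.0370), 1.58 with at least 3 markers, 5.28 over cells without the 3 excluding genes, 4.02 over Vehic tags alone, and 1.62 to 2.81 with 1 tag left out. For 3DFusi it was -0.347 with at least 3 markers, -0.385 in thinned cells, -0.402 over Vehic tags alone, -2.36 without the tags numbered 1 (left out because they were seen to be high, so no test is given) and -1.65 to -0.909 with 1 tag left out. The AcDop difference in 2DMono was -0.214 with at least 3 markers. With 1 tag left out it was -0.0225 to 1.15, the AcCoc and AcMor differences in 3DFusi were -0.500 to 2.04 and -1.01 to 1.23.

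Genes called for 3DFusi numbered 292 when cells were thinned before progenitors were chosen, 759 when the progenitors were thinned and 715 to 1436 with 1 tag left out. For 3DMono there were 989 with no filter on low counts and 318 to 510 with 1 tag left out, and for EOMES 403 with 10 cells, 195 by DESeq2, 400 with no filter and 40 to 190 with 1 tag left out. For the treatment contrasts called at 0 by edgeR, AcCoc in 2DCocu had 12 by DESeq2, 85 with no filter, 1 without doublets and 0 to 30 with 1 tag left out, and AcMor there 2, 43, 2 and 0 to 14. AcDop in 3DMono had 1 by DESeq2, 62 with no filter, 3 without doublets, 1 when thinned and 0 to 15 with 1 tag left out, and AcMor there 5, 40, 3, 11 and 0 to 47. Where 1 tag was left in a group it was assumed to vary like the others. So it was with 3DFusi thinned before the choice of progenitors, where the difference rested on AcCoc 1. The causes were not tested.

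With the replicate number as a block, 510 genes were called for 3DMono against 2DMono, 4 for AcDop and 6 for AcMor in 3DMono, and 0 for AcCoc and AcMor in 2DCocu. The same-number correlation passed 0.1 in 1 of 12 pairs in 2DCocu, 2 of 6 in 2DMono and 4 of 6 in 3DMono (0.062 to 0.237), which was below the bar for taking numbers to pair tags. Whether those numbers mark a shared source is not given by the labels. With the replicate block by number the 3DFusi share difference was -1.18 points against 2DCocu, and AcCoc and AcMor gave 0.878 and -0.143, and no call changed. Not run were this block for genes in 3DFusi, and thinning before the choice of progenitors for 3DMono against 2DMono, the 2DCocu contrasts and EOMES. Of the named genes, 15 of 39 in 3DFusi, 15 of 25 in 3DMono and 6 of 10 for EOMES were called under every alternative that gave them an adjusted p. One gene reversed (MEF2C in 3DFusi, -0.0508 without doublets). Alternatives in which a gene was not tested are left out of these counts and of those given for single genes above. MOXD1 in 3DFusi, for example, was tested in 3 of 7 alternatives that left out no tag. The tags tested held 21 to 113 progenitors.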
